A study of Mus musculus with 18 samples.

Results

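The 45 genes described here encode the machinery that copies chromosomal DNA, and they were chosen by name and role from the 31201 gene names counted in single cells of the mouse stomach. By role they were 5 licensing genes, 6 subunits of the MCM2-7 helicase, 6 origin firing genes, 9 polymerase and primase genes, 9 genes of the sliding clamp, its loader and the single-strand binding protein, 2 genes of flap cleavage and ligation, 5 genes of nucleotide supply and 3 genes of chromatin assembly and histone mRNA. All 45 had UMIs in both datasets. Single cells were measured by Quartz-Seq2, in which a sorter places each cell in a well of a 384-well plate and each transcript is counted once through its unique molecular identifier (UMI). The mice were male wild-type (WT) C57BL/6J animals aged 10 weeks with no treatment given in the labels, and each dataset held 2 pools of 3 mice prepared by different operators. Dataset 1 came from corpus and antrum gastric units, with dead cells removed by a dye (ToPro3 in the labels). Dataset 2 came from corpus gastric units, with ToPro3-positive dead cells and Hoechst-negative debris removed at the sorter. The pools of dataset 2 are called K and T as in the plate names.

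DNA replication is prepared in G1, when the origin recognition complex, CDC6 and CDT1 load the MCM2-7 helicase on origins, and it starts when kinases and the GINS complex with CDC45 turn the loaded helicase on. Polymerase alpha with primase lays down primers, polymerases epsilon and delta extend them behind the PCNA clamp, and FEN1 and LIG1 finish the lagging strand. Many of the genes are transcribed under E2F transcription factors at the passage from G1 to S, and in the gastric unit the dividing cells sit in the isthmus, between the pit above and the neck and base below.

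The 6 plates of dataset 1 held between 3054370 and 5346035 UMIs, and the 12 plates of dataset 2 held between 10540256 and 12850942. The authors kept 491 cells with a median of 38757 UMIs in dataset 1 and 3993 cells with a median of 31020 in dataset 2. Cluster numbers and the names of epithelial types follow the study, and cluster 4-15 of dataset 1 is called isthmus-like here from *Stmn1*, *Hmgb2*, *Tcf19* and *Iqgap3*, whose sum was 608 CPM (here the plain number of UMIs per 1000000 UMIs of the cluster) against at most 78.9 in the other epithelial clusters of that dataset. In dataset 2 the same sum lay between 86.2 and 1037 in the 5 isthmus clusters and reached 62.2 in the highest other epithelial cluster. The neck marker *Muc6* was between 935 and 3456 CPM in the 4 neck clusters and at most 422 elsewhere. The sum of the fixed neck markers *Muc6*, *Cblif* and *Tff2* did not single out neck cells. It lay between 8810 and 13440 CPM in the neck clusters and reached 21988 in pre-pit cluster 4. *Atp4b* was 15242 and 19111 in the parietal clusters and at most 218 elsewhere. The chief cell gene *Cblif* was 14980 in the chief cluster and also 9122 in neck cluster 12. *Pga5*, fixed as a chief marker, was lower in chief cells, at 78.0, than in every neck cluster. The sum of the fixed chief markers *Cblif*, *Pga5* and *Pgc* was 193470 in the chief cluster and higher, at 213617, in neck cluster 12. For each pool, the UMIs of all cells in a type or cluster were added up, and levels are given as CPM after TMM scaling, unless called unscaled, in the order pool K and pool T. A CPM is a share of the RNA counted, so a type with fewer cells that carry a transcript and a type with less of it in each cell cannot be told apart from CPM alone.

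The first comparison asked how far the replication genes set the isthmus apart from the other corpus epithelium. In dataset 2 all 45 were higher in isthmus cells than in the average of pre-pit, mature pit, neck, chief and parietal cells by edgeR's quasi-likelihood test at an adjusted p under 0.05, where 28.1% of the 13894 genes tested were higher and 23.1% lower. The average here and in all such fold changes is that of the types' log levels. Low levels in some types thus weigh more than they would in an average of CPM. The members' median log2 fold change was 2.58, from 0.84 for *Rfc1* to 4.57 for *Tk1*, and the median over all genes tested was 0.02. For 44 of the 45 the lower isthmus pool stood above every pool of every other type, and *Gmnn* was the exception. How many of all genes tested stood apart in this way was not counted, so this number has no background. Since the authors defined the clusters on these very counts, the p-values describe how far apart the clusters lie, and with 2 pools per type they cover the spread between those pools and no more.

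Among the licensing genes the largest difference was that of *Orc1*, the largest subunit of the origin recognition complex. It had 8.62 and 9.43 CPM in isthmus cells and no more than 1.36 CPM in any pool of another type, where its sums held between 1 and 21 UMIs. The log2 fold change was 3.59 ± 0.20 (SE), adjusted p = 4.47e-09. *Gmnn* encodes geminin, the inhibitor of CDT1 that blocks licensing after S phase has begun, and it differed least. Its level was 69.2 and 71.6 CPM in isthmus cells, 28.8 and 31.9 in neck cells and 85.7 and 95.9 in parietal cells, so both parietal pools stood above both isthmus pools while the pools of the other types stood below. Its log2 fold change against the average log level of the 5 types was 1.46 ± 0.083 (SE), adjusted p = 5.55e-09 in edgeR. In that average the high parietal level weighs less than in an average of CPM. *Cdt1*, the loading factor that geminin holds back, was called at 2.88 ± 0.13, *Cdc6* at 2.21 ± 0.11 and *Orc6* at 2.11 ± 0.095.

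All 6 helicase subunits were higher in the isthmus, from 1.93 for *Mcm2* to 3.65 for *Mcm5*. *Mcm5* had 113 and 101 CPM in isthmus cells against 16.4 and 15.7 in mature pit cells, the highest of the other types. *Mcm2* had 78.5 and 70.4 CPM in the isthmus and kept 27.3 and 24.99 in neck and 27.2 and 24.97 in pre-pit cells. In neither gene did an isthmus pool overlap a pool of another type. The fold changes were 3.65 ± 0.083 (SE), adjusted p = 4.48e-13 for *Mcm5* and 1.93 ± 0.084 (SE), adjusted p = 3.11e-10 for *Mcm2*, with *Mcm3*, *Mcm4*, *Mcm6* and *Mcm7* between them.

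The origin firing genes spread more widely. *Mcm10*, which joins the helicase at firing, was at 39.2 and 37.8 CPM in isthmus and at 1.40 and 1.75 in neck cells, a log2 fold change against all other types of 4.11 ± 0.12 (SE), adjusted p = 5.52e-12. *Gins4*, a subunit of the GINS complex, was at 37.0 and 38.7 CPM in isthmus and still at 23.6 and 23.9 in mature pit cells, and its change was 1.05 ± 0.074 (SE), adjusted p = 5.24e-08. The other GINS subunits *Gins1*, *Gins2* and *Gins3* lay at 2.44, 3.40 and 2.56, so *Gins4* was the lowest of the complex and its 4 subunits did not share a fold. *Cdc45*, the partner of GINS on the helicase, was at 3.70 ± 0.12.

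Of the 9 polymerase and primase genes, *Pole*, the catalytic subunit of the leading strand polymerase, changed most. It had 21.1 and 21.6 CPM in the isthmus and at most 2.85 CPM in any pool of another type, with as few as 1 and 2 UMIs in chief cells, and a log2 fold change of 4.40 ± 0.15 (SE), adjusted p = 3.02e-11. *Pold3*, an accessory subunit of polymerase delta, changed least. It had 31.8 and 29.1 CPM in the isthmus and 20.4 and 23.0 in neck cells, the pools of which lay apart, with a change of 1.20 ± 0.096 (SE), adjusted p = 2.01e-07. The catalytic subunits *Pola1* and *Pold1* were at 3.34 and 2.17, the primase subunits *Prim1* and *Prim2* at 2.63 and 2.23, and the accessory subunits *Pola2*, *Pold2* and *Pole2* at 2.11, 1.69 and 2.19.

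The clamp, its loader and the single-strand binding protein held the smallest median change of the 8 roles, 1.79. *Rpa2*, a subunit of the single-strand binding protein RPA, had 47.3 and 45.8 CPM in the isthmus and 9.15 and 10.9 in neck cells, with a change of 2.95 ± 0.10 (SE), adjusted p = 3.09e-11. *Rfc1*, the large subunit of the clamp loader, had 39.8 and 36.9 CPM in the isthmus, 24.6 and 28.1 in chief and 24.4 and 21.1 in neck cells, and its change of 0.84 ± 0.073 (SE), adjusted p = 4.86e-07 was the smallest of all 45 genes. The clamp *Pcna* itself lay at 1.97 ± 0.075.

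The flap endonuclease *Fen1* had 64.9 and 65.4 CPM in the isthmus and 36.3 and 34.7 in chief cells, and at most 13.1 in any pool of the remaining types, with a change against all types of 2.58 ± 0.097 (SE), adjusted p = 5.88e-11. DNA ligase I, *Lig1*, was at 82.8 and 81.7 CPM in the isthmus and at most 14.3 in other pools, a change of 3.31 ± 0.12 (SE), adjusted p = 3.32e-11. Exons of *Fen1* (chromosome 19, 10176479 to 10182097 on GRCm39 in the GENCODE M39 annotation) are overlapped on the other strand by *Tmem258* and *Gm10143*, and the sources used here do not say whether counting used the strand. Such an overlap on the other strand applied to 24 of the 45 genes, and 3 genes (*Mcm7*, *Pole2* and *Rpa1*) share exon sequence with another gene on their own strand. The authors counted with an earlier Gencode release, and whether the overlaps named in this report are in it was not checked.

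Nucleotide supply held the largest change. *Tk1*, the cytosolic thymidine kinase of the salvage pathway, had 163 and 185 CPM in the isthmus, 11.8 and 23.9 in mature pit, 9.91 and 19.98 in pre-pit and 3.48 and 4.22 in neck cells, and a change of 4.57 ± 0.15 (SE), adjusted p = 1.88e-11. *Dut*, which destroys dUTP, had 131 and 127 CPM in the isthmus and 34.8 and 37.1 in pre-pit cells, and a change of 2.12 ± 0.055 (SE), adjusted p = 1.66e-12. The ribonucleotide reductase subunits *Rrm1* and *Rrm2* lay at 2.91 and 4.27 and thymidylate synthase, *Tyms*, at 2.26. In the last group *Chaf1a*, a subunit of the chromatin assembly factor CAF-1, had 32.3 and 31.7 CPM in the isthmus and 8.63 and 5.35 in mature pit cells, with a change of 3.22 ± 0.13 (SE), adjusted p = 1.55e-10. *Slbp*, which binds the stem-loop of histone mRNA, had 48.1 and 46.9 CPM in the isthmus, 26.3 and 24.4 in parietal and 26.8 and 20.3 in mature pit cells, with a change of 1.34 ± 0.086 (SE), adjusted p = 1.84e-08. *Chaf1b* lay at 3.00 ± 0.12.

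**Figure D1:**
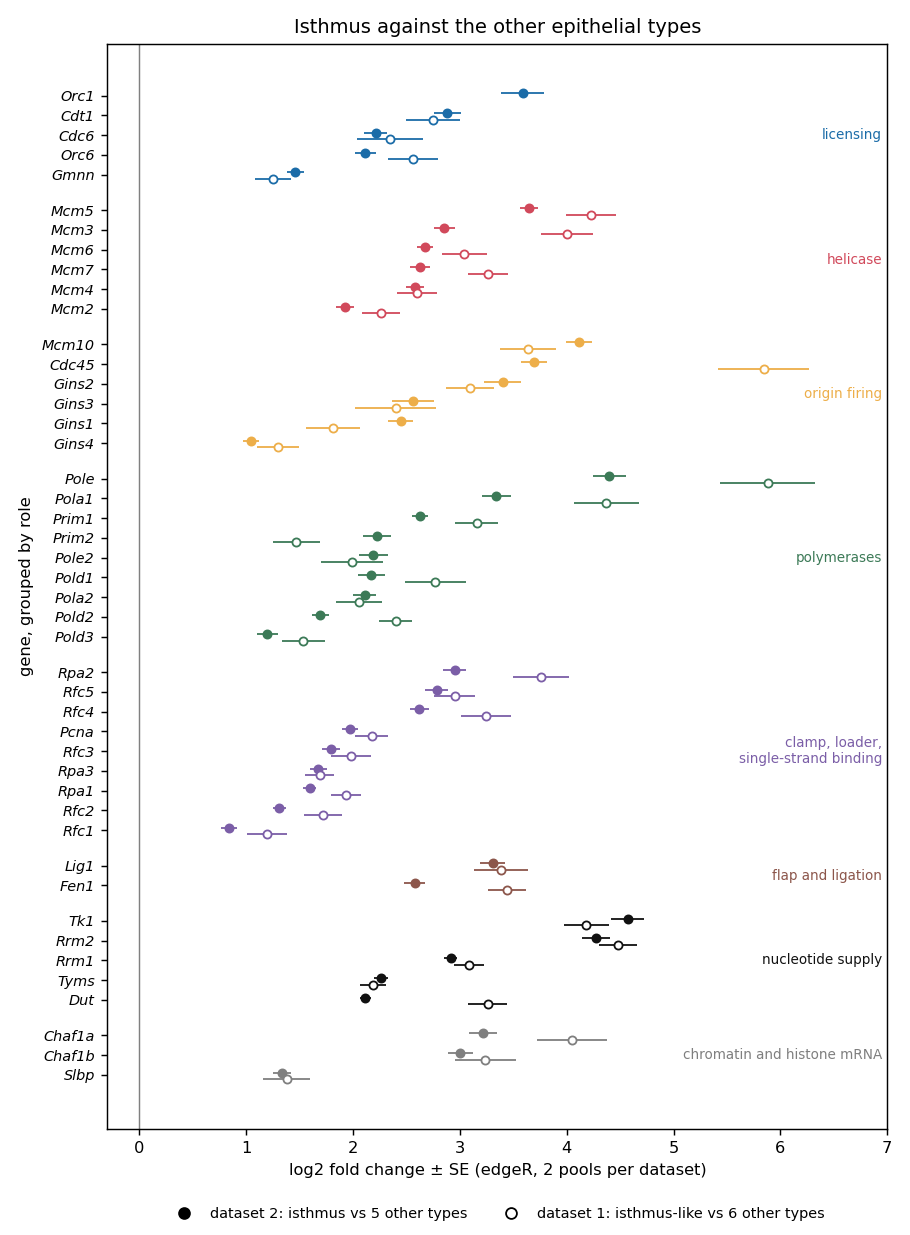
Log2 fold change of each replication gene in isthmus cells against the average log level of the other epithelial types (x axis, mean ± SE of the edgeR fit on 2 pools), grouped and coloured by role, with dataset 2 as filled and dataset 1 as open points. All points lie right of 0, from 0.84 for Rfc1 to 4.57 for Tk1 in dataset 2, and Orc1 has no open point because it did not pass the filter on low counts in dataset 1.

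The 5 isthmus clusters of dataset 2 differ by cell cycle phase, and the replication genes were followed across them. Summed over the 45 genes, cluster 6 carried 7083 and cluster 3 carried 5531 unscaled CPM, cluster 5 carried 2256, cluster 9 carried 1203 and cluster 11 carried 1056. All 339 cells of cluster 3 were called S in the deposited annotation, and all cells of cluster 5 were called G2M. In cluster 6, 52 of 107 cells of pool K and 76 of 163 of pool T were called S and the others G2M. Cluster 9 had 84 of 90 and 112 of 128 cells called G2M, and cluster 11 had 61 of 70 and 92 of 109 called G1. Of the 45 genes 12 had their highest level in cluster 3 and 33 in cluster 6, and 44 of them had the same highest cluster in both pools. The 12 were *Orc1*, *Cdc6* and *Cdt1* of licensing, *Mcm2* to *Mcm6* of the helicase, *Pold1*, *Pole2*, *Rfc3* and *Rpa2*. No gene of origin firing, nucleotide supply, flap cleavage and ligation or chromatin assembly was among them.

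**Figure D2:**
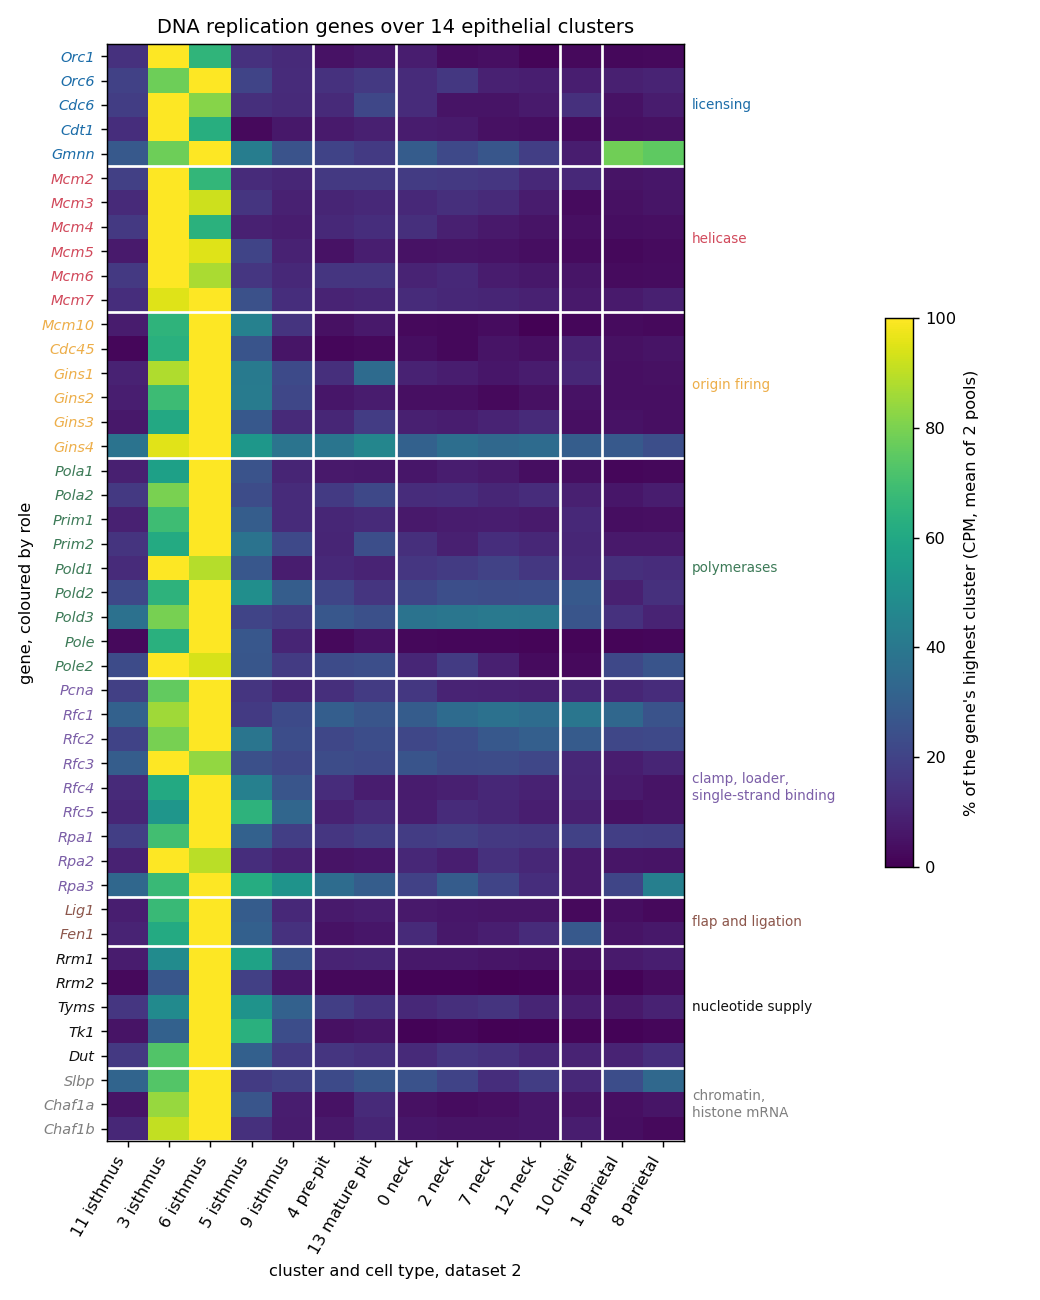
Level of each replication gene (rows, grouped by role) in 14 epithelial clusters of dataset 2 (columns), as the percentage of the gene's highest cluster from CPM averaged over 2 pools. The bright columns are isthmus clusters 3 and 6, with clusters 11, 5 and 9 and all differentiated clusters mostly darker, and the exceptions are Gmnn in the parietal clusters and Tk1, Rrm1, Tyms and Rfc5, which were higher in cluster 5 than in cluster 3.

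Between clusters 6 and 3, 24 genes were higher in cluster 6 and 3 were lower, where 9.95% of 12922 genes were higher and 6.33% lower, and the median of the members was 0.36 on the log2 scale against 0 for all genes. The 3 genes lower in cluster 6 all act in licensing or the helicase. *Cdt1* (chromosome 8, 123294703 to 123300293) fell from 142 and 144 CPM in cluster 3 to 93.5 and 85.7 in cluster 6, -0.68 ± 0.16 with an adjusted p of 0.00397 in edgeR. *Mcm4* went from 188 and 184 to 111 and 127 CPM and *Mcm2* from 178 and 173 to 116 and 116 CPM, with the pools of the clusters apart in both. The 9 other genes that peaked in cluster 3 did not pass the test against cluster 6, with *Orc1* at -0.59 and *Mcm5* at -0.07 on the log2 scale as the largest and the smallest difference. With the pool as a block 31 genes passed, and the 4 that this added were *Orc1* and *Rfc3*, lower in cluster 6, and *Orc6* and *Pold3*, higher there. With DESeq2 *Cdt1*, *Gmnn*, *Gins2*, *Gins3*, *Pole* and *Rfc2* did not pass.

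The genes that peaked in cluster 6 are given with their CPM in clusters 3 and 6. Nucleotide supply stood out. *Rrm2*, the regulatory subunit of ribonucleotide reductase, rose from 95.9 and 97.2 to 368 and 350.0 CPM, a log2 fold change of 1.89 ± 0.15 (SE), adjusted p = 1.18e-09 in edgeR. *Tk1* rose from 115 and 111 to 361 and 367 CPM. These were the 2 largest changes of the 45, and both pools of cluster 6 were above both of cluster 3 by far more than the pools differed. *Tyms* rose from 126 and 114 to 263 and 240.2 CPM and *Rrm1*, the catalytic subunit of the reductase, from 161 and 163 to 332 and 339. *Dut* rose less, from 191 and 194 to 267 and 259.8 CPM.

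All 6 origin firing genes peaked in cluster 6, and 4 of them passed the test. *Mcm10* rose from 53.3 and 47.5 to 76.8 and 78.5 CPM. *Cdc45* rose from 39.9 and 43.7 to 63.1 and 68.3 CPM. Among the GINS subunits, *Gins2* rose from 64.4 and 75.9 to 104 and 101 CPM and *Gins3* from 12.9 and 13.3 to 22.8 and 20.5. *Gins1*, with 37.5 and 35.7 CPM in cluster 3 and 39.6 and 43.5 in cluster 6, and *Gins4*, with 54.9 and 57.4 CPM in cluster 3 and 58.4 and 59.2 in cluster 6, did not pass. Of licensing and the helicase, *Gmnn* rose from 94.1 and 105 to 126 and 129 CPM. *Orc6* was at 81.3 and 90.9 CPM in cluster 3 and 109.6 and 111 in cluster 6. *Mcm7* was at 236 and 219 CPM in cluster 3 and 242 and 235 in cluster 6. Neither passed, and with the pool as a block *Orc6* did and *Mcm7* did not.

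Of the polymerase genes, 5 of the 7 that peaked in cluster 6 passed the test. *Pola1*, the catalytic subunit of polymerase alpha, rose from 41.4 and 36.2 to 76.0 and 60.7 CPM. The primase subunits rose from 108 and 96.1 to 148 and 148 CPM for *Prim1* and from 38.7 and 37.7 to 64.2 and 60.7 CPM for *Prim2*. *Pold2*, the small subunit of polymerase delta, rose from 92.0 and 93.9 to 151 and 137 CPM. *Pole* rose from 31.2 and 30.4 to 46.8 and 50.01 CPM. These changes lay between 0.54 and 0.81 on the log2 scale. *Pola2* was at 60.4 and 61.7 CPM in cluster 3 and 78.4 and 74.5 in cluster 6. *Pold3* was at 50.1 and 46.0 CPM in cluster 3 and 61.4 and 59.6 in cluster 6. Neither passed, and with the pool as a block *Pold3* did and *Pola2* did not.

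In the group of clamp, loader and single-strand binding, *Pcna* rose from 437 and 414 to 573 and 548 CPM. The small loader subunits *Rfc4* and *Rfc5* rose from 58.5 and 53.6 to 94.99 and 90.0 CPM and from 63.2 and 58.8 to 123 and 109 CPM, and *Rfc2* rose from 85.2 and 84.9 to 109 and 105 CPM. *Rfc1* was at 65.7 and 64.2 CPM in cluster 3 and 78.1 and 73.1 in cluster 6 and did not pass. Of RPA, *Rpa1* rose from 101 and 107 to 154 and 144 CPM and *Rpa3* from 88.2 and 94.1 to 130.1 and 139 CPM. *Lig1* rose from 122 and 120.4 to 182 and 176 CPM and *Fen1* from 88.4 and 86.9 to 141 and 145 CPM. *Slbp* rose from 72.8 and 72.1 to 102 and 96.6 CPM, while *Chaf1a*, at 55.2 and 57.3 CPM in cluster 3 and 63.5 and 69.2 in cluster 6, and *Chaf1b*, at 58.6 and 63.5 CPM in cluster 3 and 64.4 and 69.9 in cluster 6, did not pass.

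Cluster 5 was compared with clusters 3 and 6. Of 8 mitotic genes from a fixed list, all 8 were higher in cluster 5 than in cluster 3. Between clusters 5 and 6, 4 of the 8 were higher in cluster 5 and 0 in cluster 6. Against cluster 5, 40 genes were higher in cluster 3 and 1 was lower, with 13.3% of all genes higher and 14.9% lower and a median of 1.25 over the members. *Cdt1* dropped most, with 2.66 and 4.45 CPM left in cluster 5, a difference of 5.28 ± 0.23 (SE), adjusted p = 4.93e-15 in edgeR. *Tk1* was the gene lower in cluster 3, at -1.04 ± 0.17 (SE), adjusted p = 6.04e-05, and cluster 5 held 205 and 257 CPM. *Rfc5*, *Rpa3*, *Rrm1* and *Tyms* did not differ past the threshold, of which *Rrm1* passed, as lower in cluster 3, with the pool as a block. All 45 were higher in cluster 6 than in cluster 5, from 0.62 for *Rfc5* to 4.60 for *Cdt1* with a median of 1.87, while 9.97% of all genes were higher and 8.46% lower.

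Clusters 11 and 9 had the lowest sums of the isthmus. All 45 genes were higher in cluster 3 than in cluster 11, with a median of 2.61 and from 1.01 for *Rpa3* to 4.87 for *Cdc45*, where 11.9% of all genes were higher and 11.4% lower. *Cdc45* had 39.9 and 43.7 CPM in cluster 3 and 0.736 and 1.82 in cluster 11, and *Pole* had 0.736 and 1.82 there, so that each rests on 2 and 8 UMIs in the pools of cluster 11. Although their sums were close, clusters 9 and 11 held different genes. In cluster 9 against cluster 11, 13 genes were higher and 8 lower, where 10.5% of all genes were higher and 8.56% lower. With cells thinned to 10000 UMIs 14 of the 21 calls held, and with the pool as a block *Mcm6* was lower as well.

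The 13 genes higher in cluster 9 were *Tk1*, *Rrm1*, *Rrm2* and *Tyms* of nucleotide supply, *Mcm10*, *Cdc45*, *Gins1* and *Gins2* of origin firing, *Pole*, *Pold2*, *Rfc4*, *Rfc5* and *Rpa3*. The largest were *Tk1*, with 73.4 and 99.98 CPM in cluster 9 and 16.9 and 22.0 in cluster 11 (2.13 ± 0.25 on the log2 scale), and *Pole*, with 4.53 and 5.42 CPM in cluster 9 (1.83 ± 0.40). *Rrm1* had 85.0 and 85.4 CPM in cluster 9 and 23.9 and 27.04 in cluster 11. The 8 genes lower in cluster 9 were *Cdt1*, *Mcm2*, *Mcm4*, *Pold3*, *Pcna*, *Rfc1*, *Rfc3* and *Slbp*. *Pold3* had 9.35 and 11.7 CPM in cluster 9 and 25.02 and 20.2 in cluster 11 (-1.06 ± 0.19), *Mcm4* had 13.3 and 16.7 CPM in cluster 9 and 34.6 and 27.5 in cluster 11 (-1.004 ± 0.16), and *Cdt1* had 4.53 and 13.75 CPM in cluster 9 and 20.98 and 15.9 in cluster 11, where pool T of both clusters came close (-0.89 ± 0.31). The 8 mitotic genes of the fixed list, such as *Aurkb* and *Plk1*, were all higher in cluster 9 than in cluster 11, with a median log2 fold change of 4.32.

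Isthmus cells were also placed on a circle by the angle of their deposited S and G2M scores and divided into 8 bins. Since 21 of the 45 genes are in Seurat's S phase lists, from which such scores are made, this order is a description, and the 24 others are counted beside it. The highest level fell in bin 3 for 16 genes (9 of them outside the lists), in bin 4 for 28 (14 outside) and in bin 5 for *Tk1* alone. It was the same bin in both pools for 41 genes and at most 1 bin apart for all 45. Bin 3 held 188 cells of cluster 3 and 22 of cluster 6, and bin 4 held 152 cells of cluster 6 and 2 of cluster 3. The genes that peaked in bin 3 were those highest in cluster 3 together with *Mcm7*, *Gins1*, *Gins4* and *Chaf1a*.

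Within the order, *Cdt1* was at 132 unscaled CPM in bin 2, 198 in bin 3 and 144 in bin 4, and at 15.9 in bin 5. *Rrm2* was at 21.8 in bin 2, 198 in bin 3, 506 in bin 4 and 227 in bin 5. *Tk1* was at 409 in bin 4 and 421 in bin 5 and still at 227 in bin 6. Of these 3 genes *Cdt1* peaked first and *Tk1* last, in both pools. Of genes that are no members, *E2f1* peaked in bin 3 and the G1/S cyclins *Ccne1* and *Ccne2* in bin 4. The mitotic genes *Top2a* and *Aurkb* peaked in bin 5, as *Tk1* did. The G2/M genes *Ccna2*, *Ccnb1*, *Cdk1* and *Plk1* peaked in bin 6, with *Cdk1* in bin 5 in pool T. *Ccne2* is in Seurat's S phase lists, and the G2M score is likewise made from a gene list, so these peaks are a description as well.

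**Figure D3:**
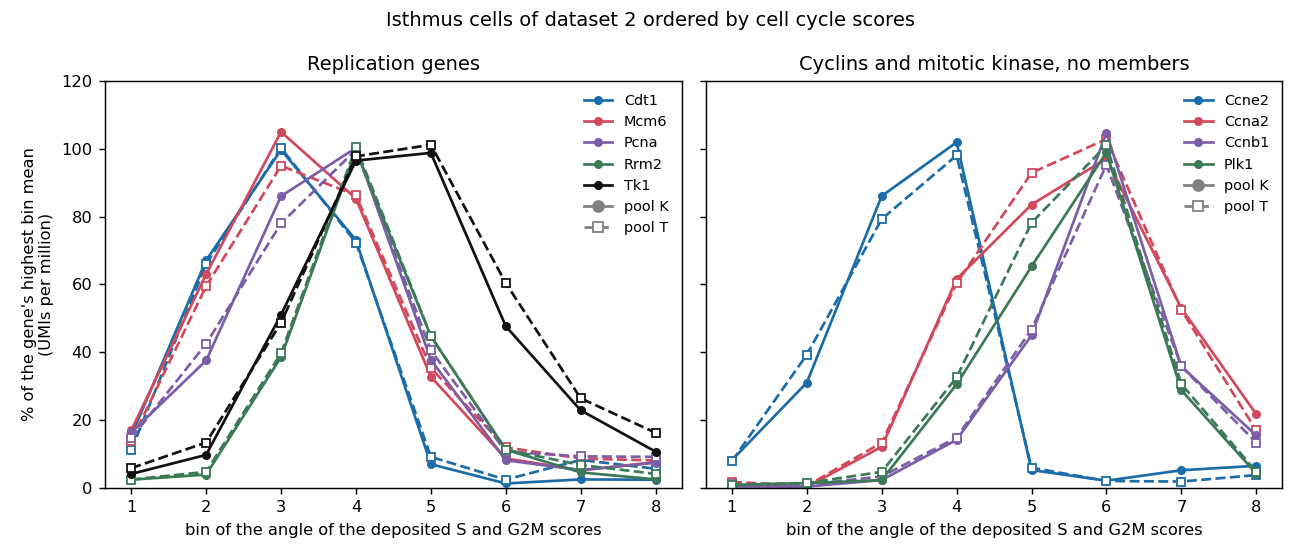
Level over 8 bins of the angle of the deposited S and G2M scores in isthmus cells of dataset 2, as the percentage of the gene's highest bin mean, for 5 replication genes (left) and 4 genes that are no members (right); solid lines with filled circles are pool K and dashed lines with open squares pool T. Cdt1 and Mcm6 peak in bin 3, Pcna and Rrm2 in bin 4 and Tk1 in bin 5, and Ccna2, Ccnb1 and Plk1 peak in bin 6.

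The deposited phase calls gave a further comparison for the 24 genes outside the S lists. In isthmus cells called S against those called G2M, 21 were higher and 1 was lower, with 12.8% of 12918 genes higher and 11.8% lower and a median of 1.15. *Cdt1* had 173 and 169 CPM in S and 12.2 and 14.5 in G2M, the largest difference at 3.67 ± 0.097 (SE), adjusted p = 2.17e-07 in edgeR. *Tk1* had 199.7 and 209 CPM in S and 248 and 297 in G2M, -0.41 ± 0.099 (SE), adjusted p = 0.0155. *Rfc5* at 0.00 and *Rpa3* at 0.23 did not pass, and *Rpa3* did with the pool as a block. Against cells called G1, all 24 were higher in S, from 1.32 for *Rpa3* to 5.11 for *Pole* with a median of 2.80, while 15.2% of all genes were higher and 11.2% lower. Both comparisons share the cells called S.

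The regulatory sequence of the genes was read from RefSeq on the build GRCm38.p6, which holds 250 bases before and 50 after the start of 37 of the 45 genes, in 42 windows. The letters searched as an E2F site were TTTCCCGC, TTTCGCGC, TTTGCCGC and TTTGGCGC on both strands. In the first window of each gene they were found in 13 of the 37 members (35.1%) and in 2.32% of 27025 genes. By cluster, 9 of the 11 genes highest in cluster 3 that have a window held them, and 4 of the 26 highest in cluster 6. The letters of the CHR element were searched on both strands as TTTGAA and, in its variants, as TTTAAA or with another middle as TTCGAA, and were in 24.3% of the members and 29.0% of all genes, and CCAAT was in 62.2% and 37.9%. A match describes letters in this window and is not shown to be a bound site, and overlapping matches such as those of *Mcm5* were counted once per gene.

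Stretches of 160 bases that end at the base before the start are shown for 4 genes highest in cluster 3 that hold the letters and for 2 genes of nucleotide supply that rose most in cluster 6 and hold none. Capitals mark E2F letters on either strand, and coordinates are those of GRCm38.p6.
Orc1, chr4:108579294-108579453, plus strand: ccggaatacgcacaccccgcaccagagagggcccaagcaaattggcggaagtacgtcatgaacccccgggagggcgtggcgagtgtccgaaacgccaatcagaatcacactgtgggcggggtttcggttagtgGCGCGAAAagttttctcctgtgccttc
Cdc6, chr11:98907991-98908150, plus strand: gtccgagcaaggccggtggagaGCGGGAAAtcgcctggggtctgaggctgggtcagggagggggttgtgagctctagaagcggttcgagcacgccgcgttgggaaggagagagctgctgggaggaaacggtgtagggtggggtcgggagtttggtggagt
Mcm5, chr8:75109349-75109508, plus strand: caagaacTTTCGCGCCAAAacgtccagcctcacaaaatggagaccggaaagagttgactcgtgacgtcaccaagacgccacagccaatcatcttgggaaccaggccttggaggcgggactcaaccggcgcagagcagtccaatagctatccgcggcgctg
Mcm6, chr1:128359706-128359865, minus strand: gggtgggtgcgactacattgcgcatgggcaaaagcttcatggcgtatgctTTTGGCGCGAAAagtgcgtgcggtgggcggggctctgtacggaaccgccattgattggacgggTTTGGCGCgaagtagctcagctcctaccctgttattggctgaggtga
Rrm2, chr12:24708094-24708253, plus strand: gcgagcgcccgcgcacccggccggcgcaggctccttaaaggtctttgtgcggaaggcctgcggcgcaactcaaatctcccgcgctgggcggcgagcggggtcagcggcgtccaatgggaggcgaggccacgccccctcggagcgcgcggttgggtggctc
Tk1, chr11:117826015-117826174, minus strand: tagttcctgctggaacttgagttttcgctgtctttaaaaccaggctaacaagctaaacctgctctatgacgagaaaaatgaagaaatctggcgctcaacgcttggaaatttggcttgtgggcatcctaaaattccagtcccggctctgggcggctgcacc

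In *Orc1* the letters began 27 bases before the start and in *Cdc6* 138 bases before it. *Mcm5* held 2 overlapping matches, 153 and 149 bases before the start, and *Mcm6* held 3, at 110, 106 and 47 bases. *Cdt1* is not among the stretches because its letters lay 33 bases after the start, and the letters of *Mcm3*, *Pold1* and *Pole2* also lay after the start. Of the cluster 3 genes with a window, *Mcm2* and *Rpa2* held none. Of the cluster 6 genes, *Mcm7*, *Gins3*, *Pola1* and *Pold3* held them in the first window. *Lig1* held them outside its first window only, 27 bases after another start. The plot of cluster differences shows the genes with and without the letters beside each other.

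**Figure D4:**
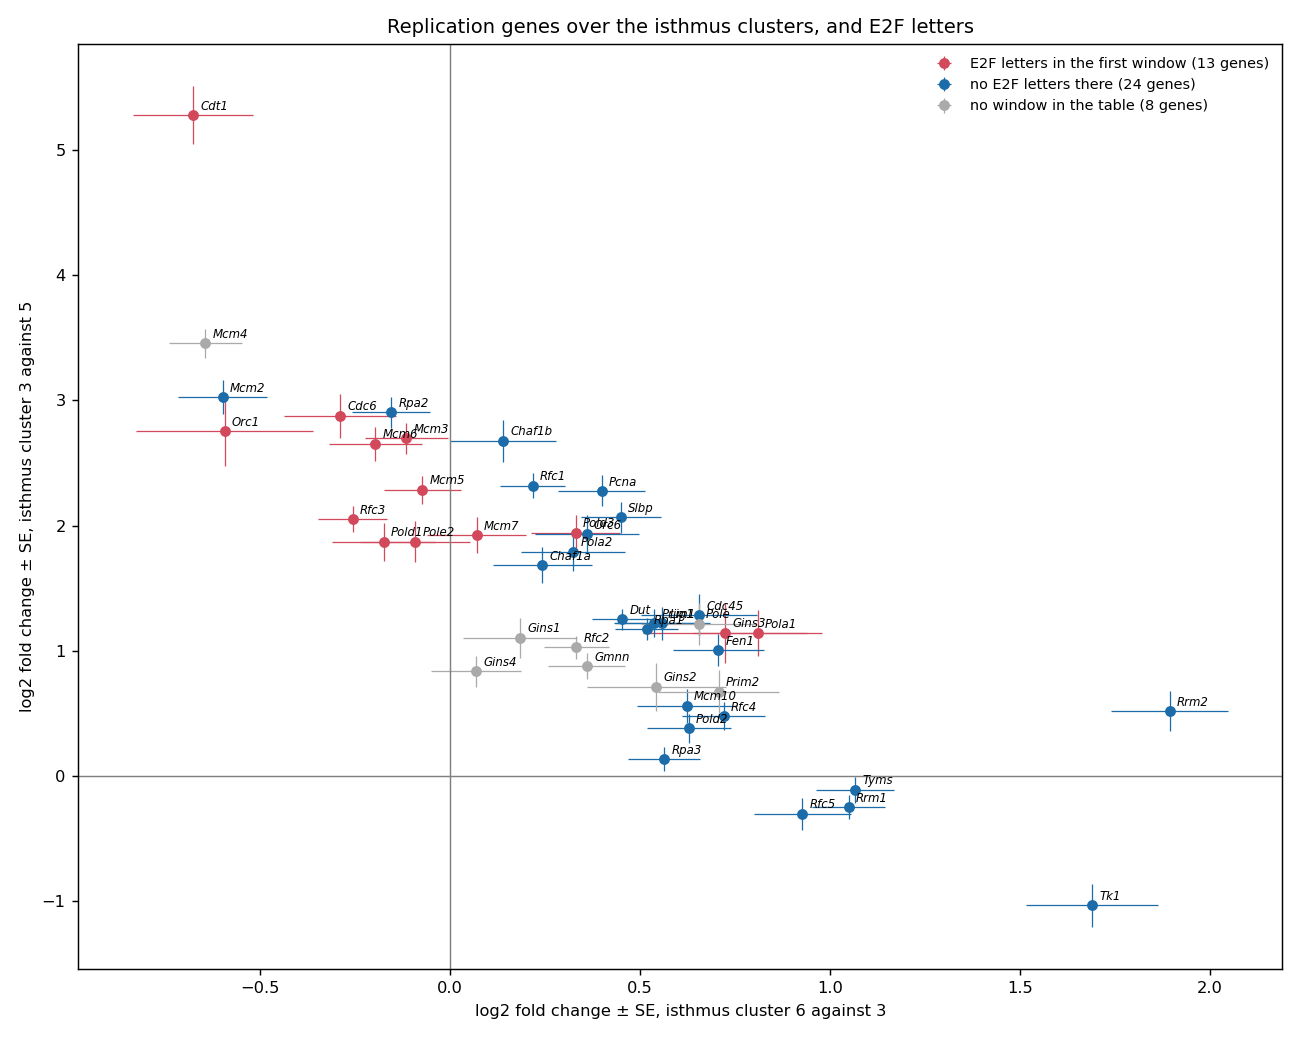
Log2 fold change ± SE of each replication gene in isthmus cluster 6 against 3 (x axis) and in cluster 3 against 5 (y axis), coloured by whether the first RefSeq window holds E2F letters (13 genes), holds none (24 genes) or is not in the table (8 genes). Both axes use the same cluster 3 sums, so a slope between them is not read; Cdt1 lies at the top left and Tk1 and Rrm2 at the lower right.

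The levels left outside the isthmus were compared next. As a percentage of the isthmus, the median over the 45 genes was 21.6% in pre-pit, 24.7% in mature pit, 20.1% in neck, 14.6% in chief and 11.7% in parietal cells. The highest of the other types was mature pit for 22 genes, neck for 8, chief for 7, pre-pit for 5 and parietal for 3. Cells called S were 6 of 53 and 6 of 68 in mature pit and 8 of 134 and 16 of 157 in pre-pit cells. They were 22 of 644 and 25 of 603 in neck and 0 of 73 and 2 of 107 in chief cells. Parietal cells held 4 of 400 and 3 of 302, and the part of cells called S in these levels was not tested. *Tk1* kept the smallest share in neck, chief and parietal cells, with 2.21%, 2.51% and 2.401%, and *Cdc45* in pre-pit and mature pit cells, with 3.51% and 4.94%. The 3 highest shares were those of *Gmnn* in parietal cells (129%), *Pold3* in neck cells (71.4%) and *Rfc1* in chief cells (68.7%). *Rfc1* was also above 50% in pre-pit, neck and parietal cells.

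**Figure D5:**
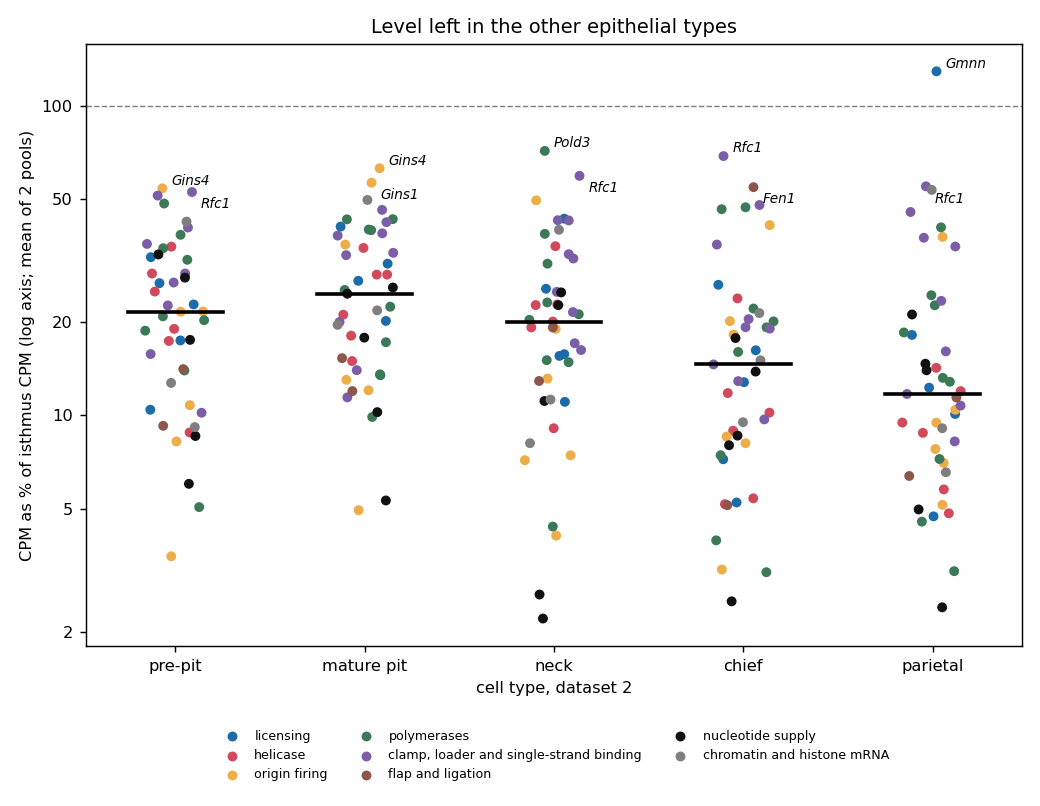
CPM of each replication gene in 5 differentiated types of dataset 2 as a percentage of its CPM in isthmus cells (log axis, mean of 2 pools), coloured by role, with the median of the 45 genes as a black bar and the isthmus level as a dashed line. The medians run from 24.7% in mature pit to 11.7% in parietal cells, and Gmnn in parietal cells is the only point above 100%.

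*Gmnn* (chromosome 13, 24935812 to 24946084 on GRCm39) was the gene that left the common pattern most clearly. Its 85.7 and 95.9 CPM in parietal cells stood against 8.39 and 9.63 in chief cells, a log2 difference of chief against parietal of -3.31 ± 0.18 (SE), adjusted p = 2.00e-09 in edgeR. When each cell was thinned to 10000 UMIs, 45.1% of the parietal cells of pool K and 54.3% of pool T had a *Gmnn* UMI, and 4.11% and 5.61% of chief cells did. Without thinning the parietal shares were 88.0% and 91.4%. Both parietal clusters carried it, with 76.4 unscaled CPM in cluster 1 and 86.5 in cluster 8, and *Cdt1* was at 5.52 and 5.45 CPM in the same cells. Parietal cells had a median of 19.3% mitochondrial UMIs against 4.25% in isthmus cells, and the exons of *Gmnn* are overlapped on the other strand by *Gm56584*. The call held with mitochondrial genes left out, and the part of the overlapping gene in the value was not tested. Phase calls put 4 of 400 and 3 of 302 parietal cells in S.

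All members were also compared between chief and parietal cells. In chief cells 12 of the 45 were higher, a share close to the 24.8% of all genes that were higher. Lower were 5, *Gmnn* among them, where 29.0% of all genes were lower. The members' median was 0.15 against -0.02 for all genes. *Fen1* was the largest rise, at 2.23 ± 0.19 (SE), adjusted p = 2.25e-07. *Prim1*, *Pold2*, *Pold3*, *Gins1*, *Chaf1b*, *Cdc6*, *Mcm2*, *Cdc45*, *Mcm6*, *Rfc4* and *Rfc2* were higher as well. With cells thinned to 10000 UMIs 7 of the 17 calls held, *Gmnn* and *Fen1* among them, and with the pool as a block *Mcm3* passed as lower and *Rfc1* as higher. Besides *Gmnn*, the lower genes were *Pole2*, *Rpa3*, *Slbp* and *Rrm1*. *Pole2* had only 1 and 2 UMIs in chief cells against 102 and 104 in parietal cells, so its fitted change of -3.29 rests on few molecules, and its exons overlap *Gm49384* on the same strand. *Rpa3* had 8.39 and 7.70 CPM in chief and 34.4 and 40.8 in parietal cells.

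Mature pit cells stood above parietal cells in 28 genes and below them in *Gmnn* alone, with a median of 0.94, where 25.7% of all genes were higher and 30.6% lower. The largest of these was *Gins1*, with 11.8 and 13.9 CPM in mature pit and 1.60 and 1.60 in parietal cells (3.01 ± 0.25). *Mcm6* had 47.2 and 46.3 CPM in mature pit and 10.7 and 8.22 in parietal cells (2.29 ± 0.16). All helicase subunits but *Mcm7* were among the 28. With cells thinned to 10000 UMIs 21 of the 29 calls held and *Mcm10* turned direction, and with cells called G1 alone 22 held and *Chaf1a* turned, with neither of these genes called there.

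Along the pit lineage, from pre-pit to mature pit cells, no gene was higher in pre-pit cells and 5 were lower, where 3.84% of all genes were higher and 6.52% lower, and the median was -0.16. The 5 were *Gins1* with 3.80 and 6.07 CPM in pre-pit and 11.8 and 13.9 in mature pit cells (-1.37 ± 0.25 (SE), adjusted p = 0.00301 in edgeR), *Prim2* (-1.18), *Chaf1a* (-1.23), *Cdc6* (-0.82) and *Mcm5* (-0.76). Apart from *Gins1* and *Prim2* their adjusted p lay between 0.0409 and 0.0488, and the mature pit sums came from 53 and 68 cells. With cells called G1 alone 3 of the 5 still passed and the median of the 45 turned to 0.16, without plate p12 of pool K 3 passed, and with cells thinned to 10000 UMIs none did.

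Pre-pit against neck cells gave 12 genes higher and 5 lower, with 20.8% of all genes higher and 22.9% lower and a median of 0.13. With cells thinned to 10000 UMIs 8 of the 17 passed, and with the pool as a block *Pola2* and *Pold1* passed as well. *Tk1* had 9.91 and 19.98 CPM in pre-pit and 3.48 and 4.22 in neck cells (1.99 ± 0.34 (SE), adjusted p = 3.59e-04 in edgeR), although pool T of the pre-pit cells had the higher level, at 112 UMIs against 47. *Rrm2*, *Rrm1* and *Tyms* were higher as well, and so were *Mcm10*, *Pole2*, *Gins1*, *Rpa3*, *Mcm6*, *Cdc6*, *Prim1* and *Rfc4*. The lower genes were *Cdc45*, *Rpa2*, *Fen1*, *Pold3* and *Gmnn*. *Fen1* had 5.27 and 6.78 CPM in pre-pit and 11.96 and 13.1 in neck cells.

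From neck to chief cells 15 genes were higher in neck and 5 lower, with 19.9% of all genes higher and 18.6% lower and a median of 0.47. All 6 helicase subunits were among the 15. *Mcm3* had 26.9 and 23.1 CPM in neck and 3.35 and 8.47 in chief cells (1.97 ± 0.28 (SE), adjusted p = 8.15e-05 in edgeR). The 5 genes higher in chief cells were *Rrm2*, *Fen1*, *Cdc45*, *Cdc6* and *Prim1*. *Fen1*, with 11.96 and 13.1 CPM in neck and 36.3 and 34.7 in chief cells, had the smallest p of them (-1.50 ± 0.18 (SE), adjusted p = 1.69e-05), and 23.3% and 22.4% of chief cells had a *Fen1* UMI at 10000 UMIs per cell, against 13.3% and 13.9% of neck cells. With cells thinned to 10000 UMIs 9 of the 20 calls held, and with the pool as a block *Orc6* and *Pola1* were higher in neck cells as well.

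To see how the low levels were spread over cells, the summed members were counted per cell. At 10000 UMIs per cell the median isthmus cell had 30 and 28 member UMIs in pools K and T, and the median was 7 in both pools of pre-pit and neck cells, 7 and 5 in mature pit, 4 in parietal and 3 in chief cells. The 5th percentile of cluster 3 was 23 UMIs. At least this many were found in 57.4% and 56.3% of isthmus cells. Outside the isthmus they were found in 6 of 291 pre-pit, 4 of 117 mature pit, 20 of 1238 neck, 5 of 701 parietal and 0 of 180 chief cells over both pools, the last of which allows a share of up to 1.67% by the floor of 3 counts.

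Cells outside the main epithelial lineages were also measured. In dataset 2 the endocrine, tuft-like, macrophage-like and endothelial-like clusters lay between 655 and 1048 unscaled CPM for the members together, each with 9 to 53 cells. The highest, macrophage-like cluster 18, rests on 144 member UMIs of 13 cells and is not set apart from isthmus cluster 11 at 1056. The tuft-like cluster 15, at 1029, also held 1027 CPM of the stromal markers. In dataset 1 the 8 macrophage-like cells were at 1695. *Rfc2* was at 90.5 unscaled CPM in the ECL-like cluster 14 of dataset 2, against 17.9 to 34.1 in the differentiated epithelial clusters and 99.8 in isthmus cluster 3. This was not particular to ECL-like cells, since the other clusters outside the main epithelial lineages of dataset 2 lay between 42.9 and 72.8. These small clusters were not tested.

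Dataset 1, which included the antrum, gave the same comparison in its own pools. Of the 44 genes tested there all 44 were higher in the isthmus-like cluster than in the average log level of 6 other types. Of 10229 genes 24.1% were higher and 16.5% lower, and the members' median was 2.76. *Pole* and *Cdc45* had the largest fitted changes, at 5.88 ± 0.45 and 5.84 ± 0.43, and *Pole* was at 22.3 and 36.5 CPM in the isthmus-like pools 1 and 2. Both genes were at 0 UMIs in both pools of 3 pit types, so the size of these changes depends on how the fit treats counts of 0. In neck cells *Pole* kept 19.8% and *Cdc45* 26.4% of the isthmus-like level. *Rfc1* and *Gmnn* changed least, at 1.19 ± 0.19 and 1.25 ± 0.17. Across the 44 genes the log2 fold changes of both datasets had a Pearson r of 0.874 and a Spearman rho of 0.888, a description across genes that share their libraries within a dataset.

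In dataset 1 the lower isthmus-like pool stood above every other pool for 39 of the 44 genes, and the 5 exceptions were *Gmnn*, *Mcm2*, *Prim2*, *Pold3* and *Rfc1*. The share of all genes tested that stood apart in this way was not counted here either. *Gmnn* again had more in parietal cells, 103 and 84.0 CPM against 64.3 and 77.5 in isthmus-like cells. *Mcm2*, *Pold3* and *Rfc1* overlapped with neck cells, where *Mcm2* had 56.6 and 70.4 CPM against 51.6 and 80.5 in isthmus-like cells. The neck cells of dataset 1 kept a median of 31.8% of the isthmus-like level, and 6 of 20 and 8 of 25 of them were called S, against 22 of 644 and 25 of 603 in dataset 2, and the part of these cells in the neck levels was not tested. *Prim2*, the large subunit of primase, had 65.3 and 51.7 CPM in antrum mature pit cells, above 36.3 and 45.01 in the isthmus-like and 27.3 and 25.6 in corpus mature pit cells. Its exons are overlapped on the other strand by *1700001G17Rik* and *Gm70913*, and the part of these genes in the values was not tested.

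The step from pre-pit to mature pit was measured in both regions of dataset 1. In the corpus 16 genes were higher in pre-pit cells and none lower, with 5.86% of all genes higher and 7.08% lower and a median of 1.27. All 6 helicase subunits were among them. *Mcm3* had 40.4 and 36.2 CPM in pre-pit and 0 and 5.70 in mature pit cells (3.78 ± 0.67 (SE), adjusted p = 9.71e-04 in edgeR), and *Dut* had 46.7 and 50.2 CPM in pre-pit and 3.90 and 8.55 in mature pit cells. The corpus cells of dataset 2 had no gene higher in pre-pit cells, and the difference between the datasets was not tested. The pre-pit pools of dataset 1 held 5 of 26 and 4 of 20 cells called S, and those of dataset 2 held 8 of 134 and 16 of 157, and their part in the counts was not tested. The corpus mature pit sums of dataset 1 rest on 13 cells a pool, and the count of 16 fell to 9 with DESeq2 and to 1 with cells thinned to 10000 UMIs, where 32 genes could be tested.

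In the antrum 5 genes were higher in pre-pit cells and 1 was lower, with 5.66% of all genes higher and 8.29% lower and a median of 0.84. *Mcm3*, *Rpa2*, *Dut*, *Tk1* and *Tyms* were the higher ones, of which *Mcm3* and *Rpa2* had only 1 UMI in the mature pit sums of both pools together. *Prim2* was the lower one, with 19.95 and 6.12 CPM in pre-pit cells and 65.3 and 51.7 in mature pit cells (-2.04 ± 0.36 (SE), adjusted p = 9.72e-04 in edgeR). Of these 6 calls, *Rpa2*, *Tyms* and *Tk1* did not pass with DESeq2, and with cells thinned to 10000 UMIs 1 of the 5 that could be tested passed. Tested directly, the change did not differ between antrum and corpus for any of the 44 genes at an adjusted p under 0.05 by edgeR or DESeq2, and 3 had an unadjusted p under 0.05 in edgeR. Of all genes 0.00978% were called higher and 0.0196% lower in that test, and it had 2 pools per type to do so.

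Other genes of the pathway, taken from fixed lists, were set beside the members in the isthmus against the other types of dataset 2. Of 25 replication factors that are no members 22 were higher and 1 lower, with a median of 1.74. The largest were *Ticrr* (treslin, needed for origin firing) at 6.12, *Chtf18* (alternative clamp loader) at 5.06, *Timeless* (fork protection) at 3.43 and *Wdhd1* (fork scaffold) at 3.09, and *Orc4* was the lower one at -0.30. Of 14 genes of nucleotide metabolism 10 were higher and 2 lower with a median of 0.86, with *Dck* among the higher ones at 2.27, and the lower ones were *Tk2* and *Rrm2b*, the mitochondrial and p53-linked counterparts of *Tk1* and *Rrm2*, at -0.73 and -0.67. All 8 E2F genes were higher with a median of 1.54, led by *E2f7* at 4.83 and *E2f1* at 4.21. Of 25 S phase genes of Seurat's list that are no members 24 were higher with a median of 2.96, and the 8 mitotic genes had a median of 5.94, above that of the replication genes.

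The same lists were counted within the isthmus. In cluster 6 against cluster 3 all 8 mitotic genes were higher, with a median of 3.35, and of the other replication factors 9 were higher and 1 lower with a median of 0.37. *Chtf18* and *Dbf4*, the activator of the CDC7 kinase, were the largest, at 1.68 and 1.47, and *Timeless* was the lower one at -0.76. Of the E2F genes, *E2f7* and *E2f8* rose by 1.81 and 1.73. Of the nucleotide genes 4 of 14 rose, with *Dck* at 0.71 as the largest, less than *Rrm2*, *Tk1*, *Tyms* and *Rrm1* among the members.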

How the data were processed

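Single-cell RNA-seq of mouse gastric units was deposited for 18 plates of 384 wells, 6 in dataset 1 and 12 in dataset 2. The deposited counts are UMI counts per gene name and cell, which the authors made with bcl2fastq (version 2.20.0.422 per the labels), Drop-seq tools and STAR on GRCm39 with Gencode annotation, and cells under 2500 detected genes had been removed by them. The deposited annotation gives clusters, cell cycle phases and S and G2M scores from Seurat, made by the authors, and the percent of mitochondrial UMIs per cell. Whether counting used the strand, and which S gene list was used, are not given in the sources used here. Doublets were not called here, since a singlet gate had been applied at the sorter.

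UMI counts were summed per pool and cell type or cluster, so that the pool was the sample (n = 2), and tested with edgeR 4.0.16 in R 4.3.3 (TMM, filterByExpr, glmQLFit and glmQLFTest, two-sided). Separate fits were made for the types of dataset 2, its 14 epithelial clusters, the isthmus phases and the types of dataset 1. Adjustment was Benjamini-Hochberg across every gene in a fit, and the threshold for a call was 0.05. The scripts were tested on simulated counts. With 2 pools the p-values cover the spread between these pools and no more, and intervals and floors cover counting error only. The operator's pool is shared by all types, and the correlation of pool deviations between types had a median of 0.174 in dataset 2 and 0.0216 in dataset 1.

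The members and lists were chosen with earlier results of these data known. Values per pool were given for the member with the largest and the smallest change in each role, for members whose highest isthmus cluster is not cluster 3, for the 3 highest levels outside the isthmus and for members called against their role, and from other lists for up to 4 genes. Further genes named with values were chosen after their values were seen. Alternatives were RLE scaling, no filter, DESeq2 1.42.0, a replicate block, plates as the unit, thinning to 10000 UMIs, no mitochondrial genes, only G1 cells (between differentiated types), each pool left out (fold changes with no test) and, added after seeing the data, plate p12 left out. Figures were drawn with matplotlib 3.10.9.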

Additional observations from a re-analysis of the deposited data

Results flagged for a closer look

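In isthmus cells of dataset 2, 92 member values were compared over the 6 plates of each pool, and in 7 of them 1 plate stood apart from the other 5 by more than Dixon's 95% critical value, where chance alone flags about 1 in 20. On plate p12 of pool K, *Mcm10* was at 65.3, *Pold2* at 119, *Gins4* at 57.3, *Rrm1* at 250.3 and *Rrm2* at 194 unscaled CPM (UMIs per 1000000 UMIs). On plate p05 of pool T, *Rfc1* was at 57.5 and *Rpa2* at 71.9. Plate p12 held 84 isthmus cells, of which 5.95% were in cluster 11, and the part of that makeup in these values was not tested.

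Wells that are not among the deposited cells also held member UMIs. In dataset 1 these 1813 wells had 775 member UMIs, which is 257 unscaled CPM, against 1265 in the kept cells. In dataset 2 the 615 wells had 664, which is 401 unscaled CPM, against 1863 in the kept cells.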

How the results depend on the processing

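The comparison of isthmus with the other types kept all 45 genes called with RLE scaling, no filter, DESeq2, a replicate block, plates as the unit, thinned cells, no mitochondrial genes and plate p12 left out. With 1 pool left out no test could be made, and its members' median lay between 2.56 and 2.68. Without pool T the median turned from 0.15 to -0.31 in chief against parietal cells and from 0.04 to -0.09 in cluster 9 against 11. Counts that moved by over 1.5 times were all between differentiated types. Pre-pit against mature pit cells in dataset 2 called 5 genes, and 0 with cells thinned to 10000 UMIs, 3 without plate p12 and 3 with only G1 cells, where the members' median turned from -0.16 to 0.16. With thinning, pre-pit against neck cells called 8 genes rather than 17, neck against chief 9 rather than 20 and chief against parietal 10 rather than 17. In dataset 1 the corpus pit step called 9 genes with DESeq2 and 1 with thinning rather than 16, and the antrum pit step 3 and 1 rather than 6. Thinning discards most UMIs, and 32 members could be tested with it in dataset 1.

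With a replicate block for the pool, 45 genes were called in the isthmus comparison, 19 in pre-pit against neck, 22 in neck against chief and 31 in cluster 6 against 3, and no count moved by over 1.5 times. Mature pit sums rest on 53 and 68 cells in dataset 2 and 13 a pool in the corpus of dataset 1, and a gene that did not pass there is not shown to be equal between types.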
